A study of Mus musculus with 8 samples.

Results

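The genes described here belong to the families that build the extracellular matrix, anchor cells to it or to each other, and cut it: the collagens, laminins, integrins, cadherins, protocadherins, Adam and Mmp proteases and the Timp inhibitors. The choice of these families was made with earlier results of these data known. Genes were then taken by name, if the symbol begins with Lama, Lamb, Itga, Itgb, Pcdh, Mmp or Timp. Symbols that begin with Col, Lamc, Cdh or Adam and a number were also taken. The rule found 92 of the 8653 genes that could be named on these arrays, on 147 of 12131 named spots. Of these, 84 had at least 1 spot with a value on all 8 arrays and were tested, among 8107 genes tested in all. The tested genes were 22 of 24 collagens, 3 of 5 laminins, all 15 integrins, 8 of 9 cadherins, 5 of 6 protocadherins, 16 of 17 Adam, all 10 Mmp and all 4 Timp genes. The rule also took in Itgb1bp2 and Itgb3bp by their symbols, which encode proteins that bind integrin tails and are not integrins, and the first of them was tested. Adam33, Cdh3, Col3a1, Col14a1, Itgb3bp, Lama1, Lamc3 and Pcdh7 had no spot with values on all 8 arrays, so no value is given for them.

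The mutants were 4 male mice aged 19 weeks, written ADAR-/-/GluR-BR/R. They lack ADAR2, an enzyme that edits adenosines in RNA, and both alleles of their AMPA receptor subunit GluR-B encode arginine at the site where editing otherwise puts it. Brain RNA of each mutant was hybridised on 2-colour cDNA arrays against pooled brain RNA of wildtype males of that age, once with the mutant in Cy5 and once in Cy3, which gave 8 arrays and asks which brain transcripts differ. The mouse was the replicate (n = 4). The wildtype pool was the only control, so wildtype mice contribute no spread to the tests. The design counts 4 mice in it and the labelling protocol 6 animals. Mice with the GluR-B change and intact ADAR2 were not part of the comparison, so a difference cannot be assigned to either change.

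Collagens are the fibres and nets of the matrix, and laminins with type IV collagen form basement membranes, which in the brain line the blood vessels and the pial surface. Integrins are paired receptors that tie cells to this matrix, while cadherins and protocadherins join neighbouring cells and help neurons choose contacts. Adam and Mmp enzymes release or cut surface and matrix proteins, several Adam proteins of sperm act in fertilisation, and the Timp proteins bind Mmp and some Adam enzymes and block them. In adult brain, fibrillar collagens come mostly from the meninges and vessel walls, whereas many cadherins, protocadherins and Timp proteins are made by neurons and glia.

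The deposited values are log2 ratios of the channels, here with the median of each array subtracted. The dye of each RNA is known from the labels, but not which channel is the numerator. The mean of a mouse's 2 arrays, called the mean ratio, compares mutant and pool if every ratio was turned to the same RNA. The swap component, which is the Cy5 array minus the Cy3 array divided by 2, compares them if every ratio is Cy5 over Cy3; under either reading the other quantity holds the effect of the dye. Signs below are therefore those of the deposited values, and no gene is called higher or lower in the mutant. A log ratio holds no level, so whether a transcript, or a marker of a cell type, was present in these brains cannot be read, and fewer cells of a type and less RNA per cell cannot be told apart.

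The arrays held 20211 to 20559 usable values of 20794 spots, and spot intensities were not used, so the number of mice and arrays limits the precision. Values spread more widely with the mutant in Cy3 (median absolute deviation 0.98 to 1.44) than in Cy5 (0.54 to 0.72). Over all genes tested, 33% passed an adjusted p of 0.05 in the mean ratio, 20.6% with a positive and 12.4% with a negative value. With the values as deposited this balance turned, to 13.8% positive and 19.1% negative. In the swap component 9.31% passed, 1.37% positive and 7.94% negative. Across the 84 tested members the mean ratio and the swap component correlated at r = -0.52, and across all genes at -0.58, as a description over genes that share the same arrays.

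In the mean ratio, 26 of the 84 members passed, 15 with a positive and 11 with a negative value. That is 31% beside 33% of all genes, so the members as a whole were called about as often as other genes. Their median was -0.11 beside 0.02 for all genes. Without the subtraction of array medians every mean ratio lies lower by 0.16, the median of all genes is -0.14, and 23 members passed, 10 positive and 13 negative. The medians of single arrays ran from -0.571 to -0.0045, so the counts of arrays above 0 given below depend on this subtraction. Spots with a value within 0.001 (log2) of a ratio of whole numbers up to 10, which weak signals can give, are called weak spots below. Without them 59 members were left. Of the 26 called members 22 were still tested and all 22 passed, while Adam3, Adam7, Lama4 and Mmp3 had no spot left. An ordinary value can match such a ratio by coincidence, and 1 match on the 8 arrays was enough to leave a spot out. How many matches were coincidence was not tested, so a value without weak spots also reflects which spots were kept. By family, all 4 Timp genes passed and were positive, 8 of 16 Adam genes passed with 4 in each direction, and 3 of 22 collagens and 2 of 15 integrins passed. Of the 26, the sign was the same on all 8 arrays for 16: Adam10, Adam15, Adam19, Cdh5, Cdh23, Col11a1, Mmp24, Timp1, Timp3 and Timp4 were positive on each, and Adam1a, Adam3, Adam5, Col16a1, Col26a1 and Itgb7 negative on each. For 23 of the 26 the value was larger in size with the mutant in Cy3 than in Cy5. The Cy3 arrays spread more widely over all spots, as given above. The shares of all called genes with either trait are not given here, so neither count is read as particular to the members.

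**Figure D1:**
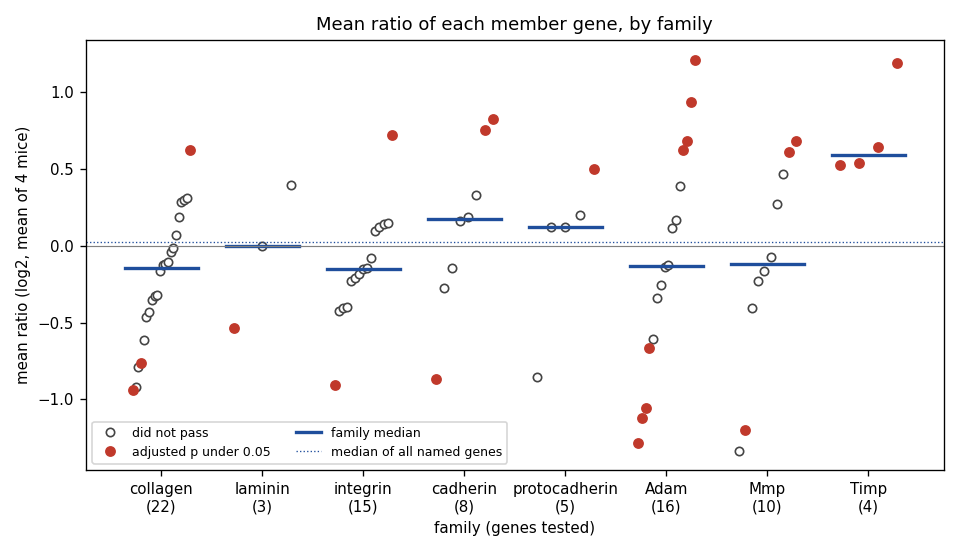
Mean ratio (log2, mean of 4 mice) of each tested gene of the 8 families, ordered by value within a family, with filled points for an adjusted p under 0.05 and a bar at the family median. The 4 Timp genes lie between 0.52 and 1.19, while the collagen median is -0.15 with 3 of 22 genes past the threshold.

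These calls depended in part on which mice were included. With 1 mouse left out, 19, 18, 13 and 16 of the 26 remained called without mouse 1, 2, 3 and 4, and all 26 kept their sign each time. The 13 that passed whichever mouse was left out were Adam3, Adam5, Adam7, Adam10, Adam15, Adam32, Cdh2, Cdh5, Cdh23, Col26a1, Mmp24, Timp1 and Timp4. The 4 arrays with the mutant in Cy5 gave no call when tested alone by limma, neither among the members nor among all genes, although 21 members had an unadjusted p under 0.05 and 25 of the 26 kept their sign. The other 4, with the mutant in Cy3, gave 26 calls, 22 of them among the 26 above. The shares of all genes called with a mouse left out or with the mutant in Cy3 alone are not given here. The lost calls are therefore not read as particular to the members.

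Collagens were seldom called. Of 22 tested, 1 passed with a positive and 2 with a negative value (13.6%, beside 33% of all genes), and 6 lay above 0. The median was -0.15, or -0.12 over the 14 chains known from connective tissue. These were fibrillar and fibril-associated chains together with Col6a1 and Col6a2 of the microfibril collagen. Col11a1, a minor chain of cartilage-type fibrils, had mean ratios of 0.48, 0.10, 0.88 and 1.03 in mice 1 to 4. All lay above 0, mouse 2 lowest, and the mean was 0.62 ± 0.42 (SD, n = 4, adjusted p = 0.0455); the adjusted p was 0.0749, 0.139 and 0.138 without mouse 1, 3 and 4, and 0.137 with the values as deposited. A further spot that lacked a value on 1 array brought the mean to 0.19 (adjusted p = 0.511) when it was let in. Col26a1, a matrix chain first found in testis and ovary, gave -0.92, -0.42, -0.63 and -0.41 with the mutant in Cy5 and -1.34, -1.10, -1.42 and -1.26 in Cy3. Each array was below 0 and the mean ratio was -0.94 ± 0.17 (SD, n = 4, adjusted p = 0.00536). Col16a1, a chain associated with fibrils, was also below 0 on every array, with -0.47, -0.55, -1.08 and -0.95 in the 4 mice and a mean of -0.76 ± 0.30 (SD, n = 4, adjusted p = 0.0137). Its adjusted p was 0.0528 without mouse 3 and 0.054 without mouse 4.

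Both chains of type I collagen, the main fibre of connective tissue, lay slightly above 0 on all 8 arrays once array medians were subtracted, without passing. Col1a1 had 0.20, 0.32, 0.23 and 0.39 in the 4 mice (0.29 ± 0.09, adjusted p = 0.107) and Col1a2 had 0.37, 0.18, 0.29 and 0.33 (0.29 ± 0.08, adjusted p = 0.0987). The spread between mice was small for both. The main chains of the basement membrane net lay on either side of 0: Col4a1 at -0.01 ± 0.26 (adjusted p = 0.949), which turned to 0.43 with weak spots left out (adjusted p = 0.0302), and Col4a2 at 0.31 ± 0.34 (adjusted p = 0.189). Col25a1, a membrane collagen of neurons, gave -1.42, -1.16, -0.06 and 0.18 and differed widely between mice (-0.61 ± 0.79, adjusted p = 0.16). The transmembrane chain Col13a1 spread wider still (-0.92 ± 1.10, adjusted p = 0.127). Col6a2, a chain of the microfibril collagen, was below 0 on 7 of 8 arrays, and its mean ratio of -0.79 ± 0.64 (adjusted p = 0.055) lay just outside the threshold.

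Among the laminins, Lama4, the alpha chain of vessel basement membranes, split by dye. With the mutant in Cy5 it gave 0.15, 0.91, 0.03 and 0.28, and with the mutant in Cy3 -1.53, -1.44, -1.60 and -1.10. The 4 arrays of one orientation were all above 0 and the 4 of the other all below, without overlap. Its mean ratio was -0.54 ± 0.24 (SD, n = 4, adjusted p = 0.0317), which passed with all mice but not with any 1 left out (0.0567 to 0.109) or with arrays scaled to one spread (-0.29, adjusted p = 0.253), and its swap component was 0.88 ± 0.21 (SD, n = 4, adjusted p = 0.0271). Lamb2, the beta chain of synaptic and vascular laminins, was above 0 on 7 arrays and did not pass (0.40 ± 0.22, adjusted p = 0.0686). Lamc1, the gamma chain shared by most laminins, lay at -0.003 ± 0.26 (adjusted p = 0.988), with mice on both sides of 0. Lamb2 and Lamc1 did not show the split by dye, with swap components of 0.12 and 0.04.

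Integrins were called as seldom as collagens, 1 positive and 1 negative of 15 (13.3%), with a median of -0.15. Both families spread more between mice than other genes. The median SD was 0.50 for integrins and 0.39 for collagens, beside 0.32 for all genes and 0.13 for the Timp genes. Few calls therefore need not mean smaller differences. Itga2b, the alpha chain of the platelet fibrinogen receptor, gave 0.08, 0.84, 0.90 and 1.05 in mice 1 to 4. Mouse 1 stood near 0 and the other 3 together, with a mean of 0.72 ± 0.44 (SD, n = 4, adjusted p = 0.0321); the adjusted p was 0.0153 without mouse 1, 0.104 to 0.108 without any other mouse and 0.111 with the values as deposited. Itgb7, the beta chain of gut-homing lymphocytes, gave -0.41, -0.58, -1.13 and -1.50 and was below 0 on all 8 arrays, at -0.90 ± 0.50 (SD, n = 4, adjusted p = 0.0212), and its adjusted p was 0.0746 and 0.0614 without mouse 3 and 4. Mice 3 and 4 were lower than mice 1 and 2. Itgb1bp2, or melusin, a muscle protein that binds an integrin tail, gave -0.19, -0.65, -0.85 and -0.51 in the 4 mice (-0.55 ± 0.28, SD, n = 4, adjusted p = 0.034). Its single arrays lay on both sides of 0, 2 above and 6 below, and its adjusted p was 0.139 with arrays scaled to one spread and above 0.05 without mouse 2, 3 or 4.

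Itgb1, the beta chain that most matrix-binding integrins of the brain share, lay near 0 in every mouse at 0.02, 0.21, 0.15 and 0.01, with a mean of 0.10 ± 0.10 (adjusted p = 0.557). Of the alpha chains that pair with it, none of these passed: Itga3 at 0.12 ± 0.65 (adjusted p = 0.732), Itga6 at -0.21 ± 0.63 (adjusted p = 0.537), Itga7 at -0.18 ± 0.42 (adjusted p = 0.476) and Itga9 at -0.15 ± 0.17 (adjusted p = 0.404). Itga2, another of its partners, spread widely between mice (-0.40 ± 0.78, adjusted p = 0.33). The leukocyte chains Itgal (-0.08 ± 0.54, adjusted p = 0.801) and Itgb2 (-0.42 ± 1.17, adjusted p = 0.471), which pair with each other on white blood cells, did not pass either. Leukocyte markers measured beside them were mixed, with 1 positive and 2 negative of 5 past the threshold.

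Cadherins gave 2 positive and 1 negative call of 8 (37.5%) and a median of 0.17, which was 0.01 with the values as deposited. Cdh5, the cadherin of endothelial junctions, gave 0.48, 0.31, 0.57 and 0.28 with the mutant in Cy5 and 1.52, 1.14, 1.21 and 1.06 in Cy3. All 8 arrays were above 0, the Cy3 arrays higher without overlap, and the mean ratio was 0.82 ± 0.15 (SD, n = 4, adjusted p = 0.00641). Of 7 other endothelial and pericyte markers tested, only the pericyte gene Rgs5 passed, at 0.69 ± 0.20 (adjusted p = 0.0122), and their median was 0.23. The part of vessel cells in the Cdh5 value was not tested.

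Cdh2, or N-cadherin, the classical cadherin of neurons and synapses, gave -0.60, -0.86, -0.74 and -1.26 in mice 1 to 4. All 4 mice and 7 of 8 arrays were below 0, at -0.87 ± 0.28 (SD, n = 4, adjusted p = 0.00906), and both of its spots passed on their own, at -1.21 and -0.53. With a spot let in that lacked a value on 1 array the mean was -0.49 (adjusted p = 0.0529), and with weak spots left out it was -0.53 (0.0167). It was the only one of the 17 tested brain members that passed with a negative value. Cdh23, a cadherin of sensory hair cells, was above 0 on every array, at 0.75 ± 0.27 (SD, n = 4, adjusted p = 0.0123). Cdh4 and Cdh13, both cadherins of neurons, did not pass, Cdh4 at -0.14 ± 0.20 (adjusted p = 0.433) and Cdh13 at 0.16 ± 0.29 (adjusted p = 0.444). With weak spots left out both passed, Cdh4 at -0.48 (adjusted p = 0.0388) and Cdh13 at 0.36 (0.0482).

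The median of the 5 protocadherins was 0.12, which turned to -0.04 with the values as deposited, and Pcdhga12 alone passed, at 0.50 ± 0.22 (SD, n = 4, adjusted p = 0.036). Its 2 spots did not agree: one gave 1.23 and passed (adjusted p = 0.00557), the other -0.24. Without array medians subtracted its mean was 0.34 (adjusted p = 0.172), with arrays scaled to one spread 0.38 (0.151) and with weak spots left out, which keeps the positive spot alone, 1.23 (0.00278). It passed only when no mouse or mouse 1 was left out. Genes of the clustered protocadherins share their last exons, so a spot that lies there cannot tell one from another, and where these spots lie was not known. The clustered gene Pcdhac2 lay at 0.12 ± 0.14 (adjusted p = 0.486), but at 0.63 with weak spots left out (adjusted p = 0.00633). Pcdh1 lay at 0.20 ± 0.55 (adjusted p = 0.524) and Pcdh18 at 0.12 ± 1.07 (adjusted p = 0.835). Pcdh12, an endothelial protocadherin, was lowest with -1.59, -1.29, 0.15 and -0.68; mouse 3 stood above 0 and the others below, and it did not pass (-0.85 ± 0.77, adjusted p = 0.0672).

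The Adam genes held the highest tested member and 3 of the 5 lowest called ones. Adam15, a protease with a metalloprotease and an integrin-binding domain, gave 0.90, 1.10, 1.54 and 1.24 with the mutant in Cy5 and 1.14, 1.09, 1.30 and 1.35 in Cy3. The 2 orientations overlapped, and its mean ratio was 1.21 ± 0.18 (SD, n = 4, adjusted p = 0.00487). Adam10, the alpha-secretase that sheds the amyloid precursor protein, Notch and N-cadherin from neurons, had similar values in both orientations, with 0.91, 0.68, 1.23 and 1.13 in Cy5, 1.11, 0.81, 0.95 and 0.66 in Cy3 and a mean of 0.94 ± 0.15 (SD, n = 4, adjusted p = 0.00524). Their swap components were -0.01 and 0.05. Adam19, or meltrin beta, was above 0 on all 8 arrays (0.62 ± 0.24, SD, n = 4, adjusted p = 0.0198), and its adjusted p was 0.0563, 0.0519 and 0.0746 without mouse 1, 2 and 3. Adam17, the other main sheddase, did not pass (-0.14 ± 0.21, adjusted p = 0.454).

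The Adam genes known from testis, epididymis and sperm lay mostly below 0. Of the 8 tested, 4 passed with a negative and 1 with a positive value, beside 12.4% and 20.6% of all genes, and their median was -0.64, beside 0.28 for the other 8 Adam genes, of which 3 passed, all positive. The negative median of the reproductive group was alike in both orientations, at -0.65 with the mutant in Cy5 and -0.67 in Cy3. A negative median was not particular to this group. Of 5 blood markers 3 passed with a negative and 1 with a positive value, and their median was -0.86. Adam7, made in the epididymis, gave -0.80, -1.54, -1.16 and -1.65 in mice 1 to 4 and was below 0 on 7 of 8 arrays (-1.29 ± 0.39, SD, n = 4, adjusted p = 0.00548). Adam7 and Adam3 were each measured by 1 spot that counts as weak, so neither has a value without weak spots. Adam3, a sperm surface protein needed for binding to the egg, gave -1.37, -1.23, -0.87 and -0.76 (-1.06 ± 0.29, SD, n = 4, adjusted p = 0.00582), and Adam5, another sperm protein, -0.84, -1.89, -0.76 and -1.003 (-1.12 ± 0.52, SD, n = 4, adjusted p = 0.0118). Both were below 0 on all 8 arrays, Adam5 as the mean of 3 spots. These lay at -0.39, -1.135 and -1.84, and only the last passed on its own (adjusted p = 0.00557). Single values of these spots reached 0.61. Adam1a, whose product helps sperm proteins mature, was also below 0 on all 8 as the mean of 2 spots (-0.66 ± 0.39, SD, n = 4, adjusted p = 0.0334). It passed only when no mouse or mouse 2 was left out. One spot lay at -1.175 (adjusted p = 0.00694 by limma) and the other at -0.15 (0.669), with single values up to 0.975. With weak spots left out, which keeps the lower spot alone, Adam1a lay at -1.18 (adjusted p = 0.00398). Adam32 passed with a positive value, at 0.68 ± 0.13 (SD, n = 4, adjusted p = 0.00975), above 0 in all 4 mice and on both of its spots. A further spot that lacked a value on 1 array brought it to 0.16 (adjusted p = 0.481) when it was let in. The Adam genes of the nervous system, Adam11 (0.16 ± 0.41, adjusted p = 0.517) and Adam23 (-0.34 ± 0.85, adjusted p = 0.436), did not pass and differed in sign between mice.

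**Figure D2:**
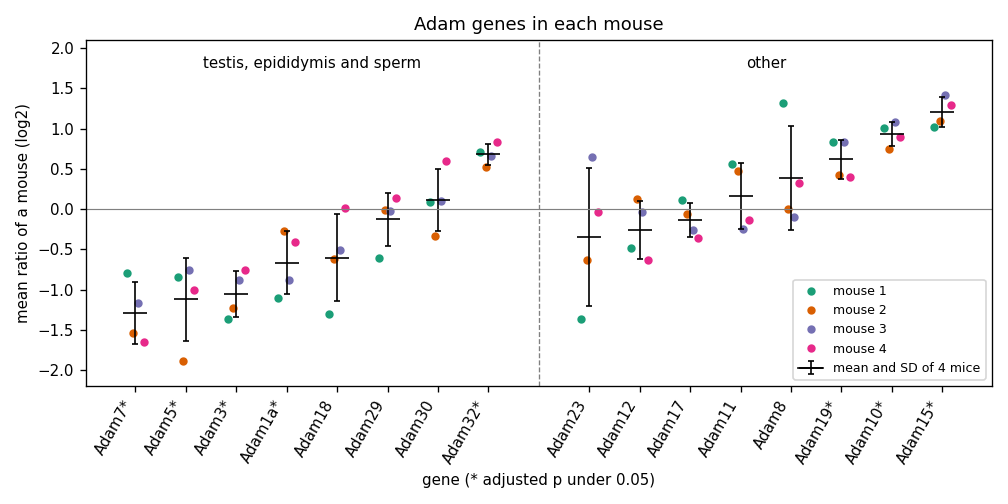
Mean ratio (log2) of each tested Adam gene in each of the 4 mice (points), with the mean and SD, for genes known from testis, epididymis and sperm on the left and the other Adam genes on the right. On the left 6 of 8 means lie below 0, Adam7 lowest at -1.29 and Adam32 alone past the threshold above 0; on the right Adam19, Adam10 and Adam15 passed at 0.62 to 1.21.

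The Mmp genes gave 2 positive and 1 negative call of 10 and a median of -0.12. The positive ones were both membrane-type enzymes made by neurons. Mmp24 gave 0.05, 0.02, 0.49 and 0.87 with the mutant in Cy5 and 1.53, 1.25, 0.72 and 0.51 in Cy3, all above 0, and averaged 0.68 ± 0.08 (SD, n = 4, adjusted p = 0.00869) with little spread between mice. Mmp17 was above 0 on 7 arrays, at 0.61 ± 0.23 (SD, n = 4, adjusted p = 0.0198), and its adjusted p was 0.0554, 0.0575 and 0.0733 without mouse 1, 2 and 3. Mmp3, or stromelysin, a secreted enzyme of connective tissue, had -0.69, -0.52, -1.95 and -1.63 in the 4 mice and a mean of -1.20 ± 0.70 (SD, n = 4, adjusted p = 0.0194). Single arrays of Mmp3 ran from -3.95 to 0.05, and its adjusted p was 0.057 and 0.0729 without mouse 3 and 4. Mmp2, a gelatinase, had the lowest mean of all members but spread as widely as its size, with -1.30, -2.99, -0.997 and -0.04 in the 4 mice (-1.33 ± 1.23, SD, n = 4, adjusted p = 0.0639). Mmp9, the other gelatinase, lay at 0.27 ± 0.13 (adjusted p = 0.138), or at 0.81 and past the threshold with weak spots left out (adjusted p = 0.00417), and Mmp14, which activates Mmp2, at -0.40 ± 0.86 (adjusted p = 0.364).

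All 4 Timp genes, the inhibitors of these enzymes, had a positive mean ratio and passed, beside 20.6% of all genes called positive (13.8% with the values as deposited). Timp1, the form known to be induced in injury and inflammation, gave 0.44, 0.31, 0.52 and 0.71 with the mutant in Cy5 and 1.60, 1.60, 2.15 and 2.16 in Cy3, the second set higher without overlap. Its mean ratio was 1.19 ± 0.23 (SD, n = 4, adjusted p = 0.00487). Timp2, made by neurons and needed for activation of Mmp2, gave 0.28, -0.11, 0.05 and 0.15 with the mutant in Cy5 and 1.22, 1.10, 0.89 and 0.68 in Cy3, so it was near 0 in one orientation and well above it in the other (0.53 ± 0.15, SD, n = 4, adjusted p = 0.0212). Timp3, which binds to the matrix and also blocks Adam17, gave 0.26, 0.29, 0.26 and 0.07 with the mutant in Cy5 and 0.98, 0.65, 0.95 and 0.72 in Cy3 (0.52 ± 0.11, SD, n = 4, adjusted p = 0.0202). Timp4, an astrocyte and vessel form in brain, gave 0.75, 0.59, 0.43 and 0.43 with the mutant in Cy5 and 0.78, 0.74, 0.59 and 0.80 in Cy3 (0.64 ± 0.11, SD, n = 4, adjusted p = 0.0108). Timp4 alone had overlapping orientations, but its 3 spots differed in this: one was at 1.22 to 1.91 in Cy5 and -0.53 to 0.70 in Cy3, while another was at 0.003 to 0.29 in Cy5 and 1.25 to 1.89 in Cy3.

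The 10 Timp spots all had a mean ratio above 0, from 0.16 to 1.19, and none of their values matched the ratios of small whole numbers up to 10 that weak spots give, beside 7.42% of values over all member spots. Timp1 and Timp4 passed whichever mouse was left out. Timp2 did not pass with any mouse left out (adjusted p 0.0521 to 0.074), and Timp3 passed only without mouse 4 (0.0484, otherwise 0.0565 to 0.0746). With the values as deposited, where the median of all genes was -0.14 in place of 0.02, Timp1 and Timp4 passed, Timp2 and Timp3 did not (adjusted p = 0.0508 and 0.0654), and the Timp median was 0.43. Genes marking other brain cells lay in the same direction: 6 of 8 neuron, 4 of 8 astrocyte and 5 of 7 oligodendrocyte markers passed with a positive value, with medians of 0.82, 0.48 and 0.62, and no marker of these 3 lists passed with a negative one. Neuron markers ran from -0.10 to 1.13 and, like Timp1, Timp2 and Timp3, had a larger median in Cy3 (1.35) than in Cy5 (0.26). Their part in the Timp values was not tested.

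**Figure D3:**
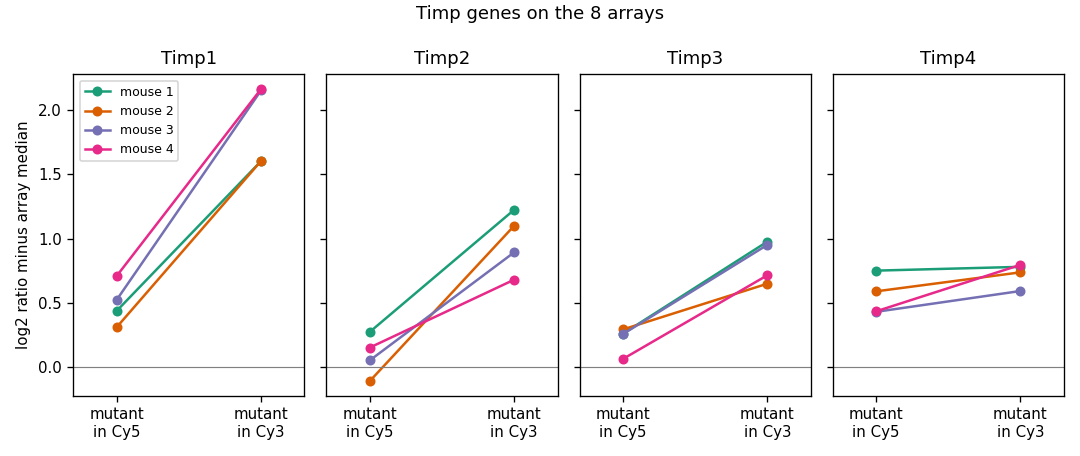
Log2 ratio minus the array median of each Timp gene on the 8 arrays, with a line joining the 2 arrays of a mouse. Of the 32 values, only Timp2 of mouse 2 with the mutant in Cy5 (-0.11) lies below 0, and every mouse is higher in Cy3 than in Cy5, least so for Timp4.

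Because the 4 Timp genes lay on the same side of 0, the 250 bases before their start sites are shown, from the RefSeq promoter table of build GRCm38.p6, 5′ to 3′ along the gene, with GC boxes in capitals. The searched letters were GGGCGG and its reverse complement CCGCCC, the core bound by Sp1-type factors, and TATAAA and its reverse complement TTTATA, which cannot overlap a GC box. Positions are chrX:20869916-20870165 on the + strand, chr11:118355412-118355661 on the - strand, chr10:86300162-86300411 on the + strand and chr6:115252206-115252455 on the - strand.
Timp1: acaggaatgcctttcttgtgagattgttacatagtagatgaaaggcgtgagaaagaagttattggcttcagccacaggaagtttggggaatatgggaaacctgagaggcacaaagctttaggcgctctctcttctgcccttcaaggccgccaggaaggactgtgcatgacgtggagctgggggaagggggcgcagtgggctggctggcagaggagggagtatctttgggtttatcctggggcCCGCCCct
Timp2: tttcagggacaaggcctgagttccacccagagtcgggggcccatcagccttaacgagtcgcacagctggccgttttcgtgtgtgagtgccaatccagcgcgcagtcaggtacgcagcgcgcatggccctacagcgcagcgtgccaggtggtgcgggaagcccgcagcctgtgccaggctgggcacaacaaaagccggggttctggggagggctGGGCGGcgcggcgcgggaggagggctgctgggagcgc
Timp3: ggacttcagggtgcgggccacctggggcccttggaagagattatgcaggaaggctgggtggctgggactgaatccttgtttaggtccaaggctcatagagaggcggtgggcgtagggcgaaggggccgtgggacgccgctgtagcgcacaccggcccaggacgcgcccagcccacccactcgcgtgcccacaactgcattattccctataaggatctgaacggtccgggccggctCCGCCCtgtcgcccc
Timp4: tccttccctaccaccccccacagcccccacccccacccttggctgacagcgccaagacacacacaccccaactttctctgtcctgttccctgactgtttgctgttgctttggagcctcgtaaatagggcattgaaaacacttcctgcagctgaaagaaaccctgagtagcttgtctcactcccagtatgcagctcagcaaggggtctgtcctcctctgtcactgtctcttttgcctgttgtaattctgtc
One GC box began 8 bases before the start of Timp1, 37 before that of Timp2 and 15 before that of Timp3, and none was found in the Timp4 window. A GC box was in 32.7% of all 32851 promoter windows of this length and in 54.2% of the 59 windows found for 53 of the 92 members, so GC boxes are common at the members' promoters and elsewhere. CpG dinucleotides numbered 6, 21, 18 and 2 in the 4 windows, beside a median of 6 over all promoters. No Timp window held the TATA letters. These letters are descriptions of the windows, and the arrays did not measure them.

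In the swap component 5 of the 84 members passed (6.0%, beside 9.31% of all genes), 4 positive and 1 negative, beside 1.37% and 7.94% of all genes. The positive ones were Lama4, given above, Itga11, Cdh15 and Itgb2l, and the negative one Timp1 at -0.69 ± 0.10 (SD, n = 4, adjusted p = 0.0271). Itga11, a collagen receptor of fibroblasts, gave -0.01, -0.85, 0.69 and 0.79 with the mutant in Cy5 and -1.55, -1.37, -0.62 and -0.30 in Cy3, higher in Cy5 in each mouse, with a swap component of 0.56 ± 0.22 (SD, n = 4, adjusted p = 0.0459). Cdh15, or M-cadherin, known from muscle, gave 0.77, 0.31, 1.42 and 0.97 with the mutant in Cy5 and -0.04, -0.91, -0.18 and 0.31 in Cy3 (0.54 ± 0.21, SD, n = 4, adjusted p = 0.0481). Itgb2l, a beta chain of neutrophils, gave -0.32, 0.49, 0.22 and 0.80 with the mutant in Cy5 and -1.45, -0.74, -0.70 and -0.12 in Cy3 (0.52 ± 0.08, SD, n = 4, adjusted p = 0.0346). All 5 had a swap component of one sign in all 4 mice.

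None of the 5 passed with any mouse left out (adjusted p 0.0767 to 0.169), and then no gene of the 8107 passed either, although 15 to 25 members had an unadjusted p under 0.05 by limma. With all arrays scaled to one spread no member and no other gene passed, with 14 members at an unadjusted p under 0.05. With the values as deposited 3 members passed, all positive, of which 2 were among the 5. Without weak spots 2 of the 5, Itgb2l and Timp1, were still tested, and both passed. Lama4, Itga11 and Cdh15 were each measured by 1 spot, which was then left out. In the main test Lama4 and Timp1 passed in both quantities, with opposite signs.

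**Figure D4:**
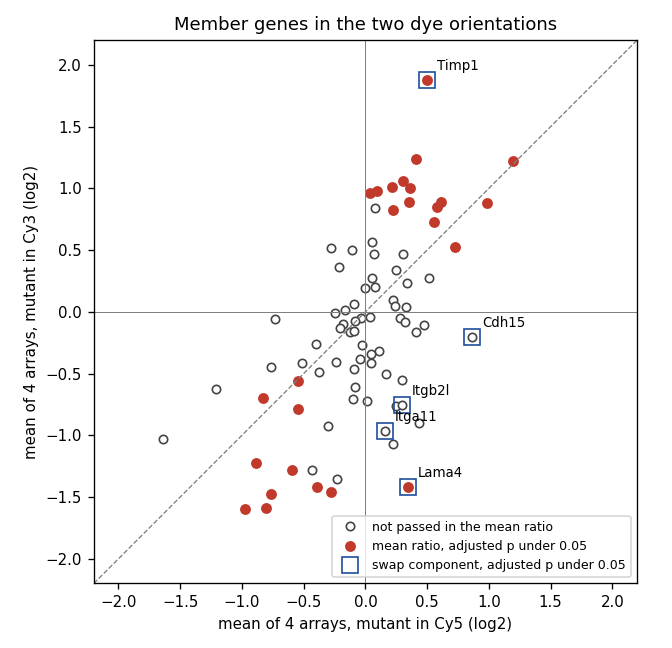
Mean log2 ratio of each tested member over the 4 arrays with the mutant in Cy5 (horizontal) and over the 4 with the mutant in Cy3 (vertical), with the line of equal values dashed. Filled points passed in the mean ratio and squares mark the 5 that passed in the swap component; Lama4 alone among the filled points has opposite signs, at 0.34 and -1.42.

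Members with known roles in neurons and glia, here called brain members, and those known from connective tissue were compared on all 8 arrays. Several of the first, such as Itgb1, Itga3, Adam10, Timp2, Timp3 and Cdh13, are also made widely outside the brain. The 17 brain members, among them neuronal cadherins, protocadherins, Adam10, Mmp17, Mmp24 and 3 of the Timp genes, had a median mean ratio of 0.16. They had 7 positive and 1 negative call (41.2% and 5.88%, beside 20.6% and 12.4% of all genes). The 27 connective tissue members, mostly fibrillar collagens with their receptors and proteases, had a median of -0.15. Their 3 positive and 2 negative calls (11.1% and 7.41%) were below the shares of all genes in both directions. With the values as deposited the brain members had 4 positive and 1 negative call and a median of 0.0033, and the connective tissue members 2 positive and 4 negative calls and a median of -0.31. Of all genes, 13.8% were then called positive and 19.1% negative. The brain median was above the connective tissue median in every mouse, by 0.21, 0.40, 0.51 and 0.46 in mice 1 to 4 (SD 0.13, n = 4), and by 0.31 between the medians over all mice. Without the Timp genes on either side the difference was 0.30.

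The difference was seen mainly in one dye orientation. With the mutant in Cy3 the brain median exceeded the connective tissue median by 0.89, 1.07, 0.74 and 0.62 in mice 1 to 4, and with the mutant in Cy5 by -0.15, 0.02, 0.30 and -0.06. In the swap component the difference was -0.17, or -0.06 without the Timp genes, and -0.20, -0.17, -0.001 and -0.18 in mice 1 to 4. The swap component is formed for each gene before the median is taken, so these values need not follow from the array medians. Values that match ratios of small whole numbers made up 10.6% of those of connective tissue members and 4.10% of those of brain members, and with such spots left out the difference in the mean ratio was 0.54. The neuron markers named above had the same pattern over the orientations, and their part in the difference was not tested. The meningeal and fibroblast markers, which would mark the usual source of collagens, had 2 positive and no negative calls of 9 and a median of 0.18. Ptgds, listed here for the meninges but not made there alone, passed at 0.99 ± 0.17 (adjusted p = 0.00509). The other one that passed, Thy1, also stands in the list of neuron markers.

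**Figure D5:**
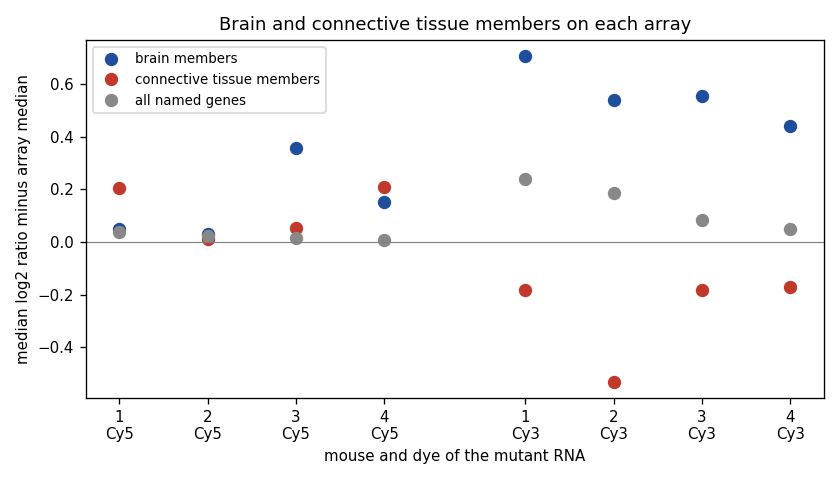
Median log2 ratio, minus the array median, of the 17 brain members, the 27 connective tissue members and all named genes on each of the 8 arrays. With the mutant in Cy3 the brain median lies at 0.44 to 0.71 and the connective tissue median at -0.53 to -0.17, while with the mutant in Cy5 the brain median exceeds the other in mouse 3 by 0.30 and in mouse 2 by 0.02 and lies below it in mice 1 and 4.

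The partners of these families were followed through 101 tested genes: other matrix proteins, collagen-making enzymes, Adamts proteases, the cytoplasmic partners of integrins and cadherins, and ligands and substrates of Adam proteins. Of these, 27 passed with a positive value and 10 with a negative one, beside 20.6% and 12.4% of all genes, and the median was -0.00725. Called partners were 36.6% of those tested, close to the 33% of all genes. The partners of cadherins gave 7 positive and 1 negative call of 13, with a median of 0.49 beside 0.17 for the cadherins themselves. The partners of integrins gave 6 and 2 of 17 (median 0.19), the other matrix proteins 8 and 4 of 42 (-0.06), and the collagen-making enzymes 2 and 1 of 16 (-0.16, beside -0.15 for the collagens). The ligands and substrates of Adam proteins gave 4 and 1 of 8 (0.51), and of the 5 Adamts genes 1 passed, with a negative value.

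The partners with the largest positive values were App, the amyloid precursor protein that Adam10 cuts, at 1.23 ± 0.13, Sparcl1, an astrocyte matrix protein, at 1.08 ± 0.19, and Tspan3, a tetraspanin, at 1.04 ± 0.11 (SD, n = 4, adjusted p = 0.00487 for each). All 3 were larger in Cy3 (1.82 to 2.00) than in Cy5 (0.26 to 0.47), unlike Adam10 itself. The most negative of those that passed were Spock1, a proteoglycan of the brain matrix, at -1.11 ± 0.62 (adjusted p = 0.018), Ctnna3, an alpha catenin of heart and testis, at -1.004 ± 0.15 (0.00499), and Adamts12 at -0.96 ± 0.22 (0.00571). Ctnna3 was below 0 on all 8 arrays.

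Where a member had several spots, they often disagreed. Of the 26 members with several usable spots, 12 had spots of both signs (46.2%, beside 46.3% of 2256 genes), and the median range between spots of a gene was 0.76 (0.53 over all genes). Itgb1 had 5 usable spots from -0.79 to 0.56, of which 1 passed in each direction, so its mean near 0 joins spots that differ. Cdh4 had 5 from -0.63 to 0.72 and Col4a1 3 from -0.62 to 0.43, again with 1 call in each direction. Col1a2 had 1 spot at 0.87 that passed and 3 that did not. The spots of Cdh13, Mmp9 and Pcdhac2 also differed in sign with 1 positive call each, and of the 3 spots of Col9a3 2 passed with a negative value and the third lay at 0.02. The Timp genes with several spots had none of opposite sign.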

How the data were processed

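Brain RNA of 4 mutant mice and a wildtype pool was reverse transcribed, labelled indirectly and hybridised to 8 cDNA arrays, per the labels' protocols. Scanning and normalisation were not given in the sources used here. Values were deposited as log2 ratios with 1 additive constant per array, a scale read from their repeats at ratios of small whole numbers; numerator and centring stay unknown. Values at the code for an empty denominator (1 to 30 per array) were treated as missing.

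A value row was named by the platform annotation whose probe number is lower by 11, up to probe number 20000, a shift taken from earlier work on these values, in which probes of a gene resembled each other at this shift. All 12771 annotated spots were found in the RefSeq gene table (GRCm38.p6). The 17 member spots beyond that limit were not used.

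Array medians were subtracted, spots with values on all 8 arrays kept, spots of a gene averaged and a mouse's 2 arrays combined. The 4 mouse values were tested against 0 by limma 3.58.1 (R 4.3.3, intercept only), with Benjamini-Hochberg adjustment over 8107 genes and a threshold of 0.05; errors are SDs over mice. The test was tested on simulated data first. Members and lists were chosen with earlier results of these data known. By rule the text names up to 12 members per direction and quantity past the threshold, each family's extremes, all Timp and laminin genes, members whose spots differ in sign and 3 partners per direction. Other members were named afterwards as relatives of these. Alternatives were no centring, one spread for all arrays, fewer required values, no weak spots, unshifted names, single spots, single orientations and each mouse left out.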

Additional observations from a re-analysis of the deposited data

Results flagged for a closer look

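In 196 sets of 4 mouse values (the 84 tested members and the medians of the families and tissue classes, each for both quantities), 4 had a mouse whose distance from the nearest other exceeded the critical share of the range in Dixon's outlier test. Chance flags about 1 set in 20. The mean ratio of Col27a1, a cartilage collagen, was 0.59 in mouse 1 and -0.41 to -0.27 in the others. The swap component of Col18a1, a vessel basement membrane collagen, was -0.34 in mouse 3 and 0.03 to 0.06 in the others. The swap component of Itga9 was 0.29 in mouse 2 and 0.04 to 0.08 in the others. The median swap component of the 9 basement membrane and vascular members was -0.15 in mouse 3 and 0.04 to 0.06 in the others.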

How the results depend on the processing

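The 26 calls in the mean ratio were 23 (10 positive, 13 negative) with the values as deposited, 24 (15 and 9) with arrays scaled to one spread, 28 (13 and 15) with 1 value per mouse enough, 27 (19 and 8) of 59 genes without weak spots, 29 of 82 with names at the listed spot number and 26 with the mutant in Cy3 alone. Single spots gave 44 calls of 127, Cy5 arrays alone gave 0 (21 at an unadjusted p under 0.05), and leaving out a mouse gave 14 to 20 (14 without mouse 3, 17 without mouse 4). The 5 calls in the swap component were 3 as deposited, 0 scaled, 8 without weak spots, 11 for single spots, 4 with names at the listed number and 0 to 0 with a mouse left out. As deposited, the positive share of calls went from 57.7% to 43.5%, because every mean ratio shifts alike. Of all genes, 33% passed in the mean ratio as deposited, 28.1% scaled and 28.8% with 1 value per mouse enough. In the main test 33% passed, and the shares for the other settings are not given here.

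The brain minus connective tissue difference of 0.31 was 0.46 with 1 value per mouse enough, 0.54 without weak spots, 0.048 with Cy5 alone, 0.60 with Cy3 alone and 0.26 to 0.48 with a mouse left out (0.48 without mouse 1). With names at the listed spot number it reversed to -0.19, and its swap component to 0.22. That naming attaches other spots to the same genes; under it the mean ratio reversed for Adam10 (-0.20), Adam15 (-0.30), Adam19 (-1.62), Adam32 (-0.29), Adam7 (0.029), Cdh2 (0.025), Cdh23 (-0.27), Itgb1bp2 (0.24), Mmp3 (0.81) and Timp3 (-0.48), and the swap component for Cdh15 (-0.22), Itgb2l (-0.10) and Mmp3 (-0.69). Without weak spots, which leaves fewer spots per gene, Col4a1 turned to 0.43 and Cdh4, Cdh13, Mmp9 and Pcdhac2 came to pass, and Lama4 to 0.34 with Cy5 alone. No spot intensity was used, so signal over background could not be checked.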
